A study of Mus musculus with 13 samples.

Results

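Complex III (cytochrome bc1) and complex IV (cytochrome c oxidase) pass electrons to oxygen in the inner membrane of the mitochondrion, and the proton gradient built on the way drives complex V, the ATP synthase. Nuclear genes encode most subunits of the 3 complexes, which join a few core subunits made inside the mitochondrion. Acinar cells, the bulk of the pancreas, make and secrete large amounts of digestive enzyme and draw on mitochondrial ATP for it. Several complex IV subunits are encoded by a pair of genes, one used in most tissues and one known mainly from muscle, brown fat, lung or testis.

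The nuclear subunit genes of complexes III, IV and V were followed in RNA sequencing of whole pancreas from 13 female mice. They were the protein-coding genes with a symbol beginning with Uqcr (complex III), Cox4 to Cox8 (complex IV) or Atp5 (complex V), and 43 of the 23366 rows of the expression table met this rule, 8 for complex III, 18 for complex IV and 17 for complex V. These are all 43 such genes in the GRCm38.p6 annotation, and none of its 14 pseudogenes with such a symbol is a row of the table. The rule leaves out cytochrome c1, and Cox7a2l, which begins with a complex IV symbol, is known as a supercomplex assembly factor and is counted here with complex IV.

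All mice carried the i4F-B transgenes, a ubiquitous cassette of OCT4, SOX2, KLF4 and MYC (OSKM) that doxycycline switches on, inserted in the Pparg gene. The study reports uneven expression among cell types. By SOX2 staining after a doxycycline injection, the cassette was broadly on in acinar cells but not in most endocrine cells. Young mice (13 weeks, n = 4) and old mice (55 weeks, n = 5) received no doxycycline. Old-OSKM mice (58 weeks by the sample labels, n = 4) received doxycycline in drinking water for 1 week and recovered for 2 weeks. The doxycycline water also held sucrose, and the sources used here do not say whether untreated mice received it. Treated mice therefore differ from old mice by drug and labelled age as well as by the factors, and these cannot be told apart. Each library is 1 mouse. The values are log2 RPKM (reads per kilobase of transcript, scaled to the size of the library and quantile normalized across mice), and values of single mice are given below in the order of the replicate numbers. The study's methods give 1 nominal read total for all samples, and the table holds no counts, so the counting error of a value could not be given. Acinar enzyme genes such as Ctrb1 and Amy2a5 stood at the top of the table, at 11.11 and 10.80 log2 RPKM in young replicate 1. Since quantile normalization gives the top ranks the same values in every mouse, levels of these genes cannot show how the acinar share differed between mice. Of the 13, 1 mouse, old-OSKM replicate 4, stood apart in the subunit genes and in the markers of several other cell types.

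The members fell into 2 classes of level. The 36 constitutive genes had means over the 13 mice between 2.33 (Uqcr10) and 4.50 (Atp5b) log2 RPKM. The other 7 lay between -2.34 (Cox8c) and -1.30 (Cox6b2), with no member in the gap. All 7 are second isoforms of complex IV (Cox4i2, Cox6a2, Cox6b2, Cox7a1, Cox7b2, Cox8b and Cox8c), while every gene of complexes III and V was of the constitutive class. Uqcr10 ranked at percentile 94.7 and Atp5b at percentile 99.3 of the mean levels of all rows.

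**Figure D1:**
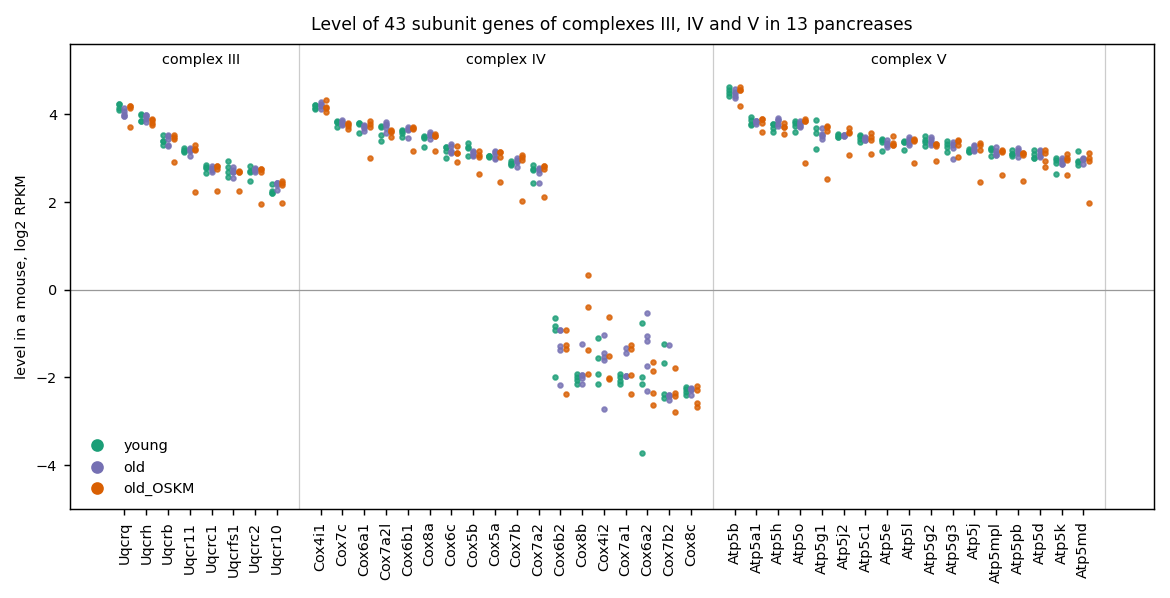
Level of each of the 43 genes in each mouse, in log2 RPKM, by complex and in descending order of the mean. The 36 constitutive genes have means above 2 and the 7 tissue isoforms of complex IV below -1, and the orange point below the rest in most constitutive genes is old-OSKM replicate 4.

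Within complex III, Uqcrq, a small subunit that binds ubiquinone, was the highest, at 4.18 ± 0.076 (SD, n = 4) in young, 4.04 ± 0.083 (n = 5) in old and 4.07 ± 0.24 (n = 4) in old-OSKM mice. Uqcr10, another small subunit, was the lowest, at 2.27 ± 0.10, 2.39 ± 0.074 and 2.32 ± 0.24 in the same order. The large core proteins Uqcrc1 and Uqcrc2 and the Rieske iron-sulfur protein Uqcrfs1 lay near the low end, with means of 2.73, 2.66 and 2.68. Within complex IV, Cox4i1, the regulatory subunit that binds ATP, was the highest, at 4.18 ± 0.048, 4.21 ± 0.061 and 4.17 ± 0.12.

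Within complex V, the catalytic beta subunit Atp5b was the highest gene of all 43, at 4.52 ± 0.092, 4.48 ± 0.083 and 4.49 ± 0.19, and Atp5md, a small membrane subunit, the lowest, at 2.97 ± 0.13, 2.97 ± 0.056 and 2.76 ± 0.53. The c subunit of the rotor ring is encoded by 3 genes whose mature proteins are the same, Atp5g1, Atp5g2 and Atp5g3. Summed on the RPKM scale, they reached 32.5 ± 2.45 (SD) in young and 31.7 ± 1.5 in old mice, against 23.1 ± 1.47 and 22.4 ± 1.28 for Atp5b. All 3 c subunit genes were used at similar levels: Atp5g1 minus Atp5g2 averaged 0.18 log2 over the 13 mice, from -0.42 in old-OSKM replicate 4 to 0.60 in young replicate 1, and Atp5g1 minus Atp5g3 averaged 0.25, from -0.50 to 0.56.

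In each isoform pair of complex IV the constitutive gene was far above its partner in every mouse. The difference on the log2 scale averaged 5.82 for Cox4i1 over Cox4i2, 5.52 for Cox6a1 over Cox6a2, 4.90 for Cox6b1 over Cox6b2, 4.49 for Cox7a2 over Cox7a1 and 5.03 for Cox7b over Cox7b2. Cox8a exceeded Cox8b by 5.07 and Cox8c by 5.81 on average. The smallest difference in any mouse was 3.16, for Cox8a over Cox8b in old-OSKM replicate 2. Values of the low class partly coincided: in 11 of 13 mice at least 2 of the 7 isoforms lay within 0.03 of each other, and 31 of the 91 values did so. By their means the 7 ranked between percentile 37.7 and 47.5 of all rows, whose values reach down to -6.27. Whether such a value rests on reads cannot be read from the table.

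Short stretches before the annotated start of transcription are shown for 5 members, to set constitutive genes beside a tissue isoform and, for Atp5g1 and Uqcrh, opposite ends of the deviation of old-OSKM replicate 4 described below. The 250 bases before the start were read from RefSeq (GRCm38.p6), which gave 36 windows for 33 members. RefSeq lists other starts than the outermost one for some genes, and 9 of the 36 windows (7 genes: Atp5c1, Atp5d, Atp5g1, Atp5g3, Atp5j, Cox5a and Cox7a2) lay in part or whole inside the annotated span of the gene. For the Atp5g1 window printed here, the 63 bases nearest to the gene lay inside it, and the other 4 printed windows lay wholly outside. Capitals mark letters known from the sites of NRF1 (GCGCNTGCG) and of ETS factors such as GABP (CCGGAAG), 2 kinds of regulator of respiratory genes, and the CCAAT box (CCAAT), on either strand. Windows lie at chr5:115348959-115349208 for Cox6a1, chr11:96075632-96075881 for Atp5g1, chr4:116075071-116075320 for Uqcrh, chr19:7217617-7217866 for Cox8a and chr7:140900447-140900696 for Cox8b, all of them on the minus strand and printed 5′ to 3′ toward the gene.
Cox6a1: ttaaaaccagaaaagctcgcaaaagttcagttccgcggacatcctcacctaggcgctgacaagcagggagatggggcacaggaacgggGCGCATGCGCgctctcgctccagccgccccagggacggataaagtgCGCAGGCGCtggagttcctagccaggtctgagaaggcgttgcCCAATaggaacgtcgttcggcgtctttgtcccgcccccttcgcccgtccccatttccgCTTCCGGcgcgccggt
Atp5g1: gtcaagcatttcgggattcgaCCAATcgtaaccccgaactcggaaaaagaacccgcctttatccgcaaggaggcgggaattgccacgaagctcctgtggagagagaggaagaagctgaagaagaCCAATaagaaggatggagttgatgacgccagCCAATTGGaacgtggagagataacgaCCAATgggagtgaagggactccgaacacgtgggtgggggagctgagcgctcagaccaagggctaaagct
Uqcrh: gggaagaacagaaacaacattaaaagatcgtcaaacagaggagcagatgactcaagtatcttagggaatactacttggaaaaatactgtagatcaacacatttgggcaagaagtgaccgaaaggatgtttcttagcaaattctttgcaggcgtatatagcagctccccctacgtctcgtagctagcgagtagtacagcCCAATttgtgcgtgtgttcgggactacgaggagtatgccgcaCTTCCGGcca
Cox8a: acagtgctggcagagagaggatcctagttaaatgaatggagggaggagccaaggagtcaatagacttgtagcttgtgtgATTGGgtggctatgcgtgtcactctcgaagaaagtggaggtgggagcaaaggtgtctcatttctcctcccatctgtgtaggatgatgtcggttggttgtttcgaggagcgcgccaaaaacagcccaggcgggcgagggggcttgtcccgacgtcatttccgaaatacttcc
Cox8b: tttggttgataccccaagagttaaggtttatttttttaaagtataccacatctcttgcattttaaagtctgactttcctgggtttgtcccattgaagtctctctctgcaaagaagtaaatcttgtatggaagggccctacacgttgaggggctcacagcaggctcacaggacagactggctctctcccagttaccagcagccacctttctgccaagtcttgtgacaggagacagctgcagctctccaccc
NRF1 letters stood in 7 of the 29 constitutive genes with a window (Atp5c1, Atp5g2, Atp5h, Atp5k, Atp5l, Atp5md and Cox6a1) and in 5.19% of all 32851 mouse windows. ETS letters stood in 8 of the 29 (Atp5e, Atp5h, Atp5j, Atp5l, Cox6a1, Cox6b1, Uqcr11 and Uqcrh) and in 6.91% of all windows. CCAAT stood in 15 of the 29, 5 times in the window of Atp5g1, where 1 pair overlaps, and in 33.8% of all windows. In Cox6a1 the first run of capitals holds a pair of overlapping NRF1 matches on opposite strands. The 4 low isoforms with a window (Cox6b2, Cox7a1, Cox7b2 and Cox8b) held neither NRF1 nor ETS letters. These are matches of letters, not sites shown to be bound.

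No difference between young and old pancreas was detected in any member. None of the 43 passed the study's threshold (fold change over 1.5 and raw p under 0.01 in limma), where 0.886% of all rows did, and none had a raw p under 0.05, against 5.52% of all rows. In no member were the young and old mice separated without overlap, against 2.71% of all rows. The median difference of old minus young was -0.0037 log2 for complex III, 0.032 for complex IV (all 18 genes) and -0.00015 for complex V, and 0.0012 over all rows. Of the 36 constitutive genes, 20 were higher and 16 lower in old mice, between -0.15 and 0.13. The 95% intervals of the 36 all lay between -0.55 and 0.45, with a median SE of 0.10. The fit shares its estimate of spread over the 3 groups, so these intervals also carry the spread of the old-OSKM mice. Without old-OSKM replicate 4 the median SE was 0.053. In that fit 1 member, of complex III, had a raw p under 0.05 in old minus young, where 1800 of all 23366 rows did. In whole tissue, fewer cells of a type and less RNA per cell cannot be told apart. The smallest Benjamini-Hochberg adjusted p of limma among the members was 1.00.

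Uqcrq had the smallest raw p of complex III in this comparison. It was at 4.24, 4.14, 4.25 and 4.10 in the young mice, 4.16, 4.02, 3.95, 4.08 and 3.97 in the old mice and 4.15, 4.20, 4.20 and 3.72 in the old-OSKM mice. Its young and old values overlap, and old minus young was -0.15 (SE 0.096). The next in complex III had differences of 0.12 (SE 0.098) for Uqcr10 and -0.059 (SE 0.10) for Uqcrfs1. In complex IV it was 0.13 (SE 0.077) for Cox7a2l, 0.80 (SE 0.52) for Cox6a2 and 0.31 (SE 0.22) for Cox7a1. In complex V the d subunit of the peripheral stalk, Atp5h, had the smallest p, at 0.11 (SE 0.063), before the membrane subunits Atp5l, at 0.065 (SE 0.10), and Atp5k, at 0.054 (SE 0.10).

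Cox6a2, the heart and muscle form of subunit 6a, showed the largest point difference with age but also one of the widest spreads. It lay at -1.99, -3.73, -0.75 and -2.15 in the young mice, -2.30, -1.06, -1.17, -1.73 and -0.52 in the old mice and -1.84, -2.64, -2.36 and -1.64 in the old-OSKM mice. The lowest and the second highest value were both from young mice, and the groups overlap. Old minus young did not exceed the spread, and neither did old-OSKM minus old, at -0.76 (SE 0.52). Restricted to the 10 mice of the lower run of sample identifiers, old minus young was 1.30 (SE 0.53, limma adjusted p = 0.998), and with that run as a covariate 1.17 (SE 0.45, limma adjusted p = 0.831), with a raw p under 0.05 in both. Over all alternatives the adjusted p of limma for this difference ranged from 0.640 to 1.00.

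Old-OSKM against old pancreas gave a downward tilt over all 3 complexes, which was lost when 1 mouse was left out. With all 4 old-OSKM mice, 32 of the 36 constitutive genes were lower than in old mice, and the median difference was -0.089 for complex III, -0.11 for complex IV (all 18 genes) and -0.11 for complex V, beside -0.039 over all rows, of which 36.9% were higher. Without old-OSKM replicate 4, 25 of the 36 were higher, and the medians were 0.047, -0.0030 and 0.048, beside -0.018 over all rows. For complex IV this is again over all 18 genes, and over its 11 constitutive genes the median was 0.0098. The median SE of a constitutive gene in this comparison went from 0.10 to 0.058 when that mouse was left out.

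**Figure D2:**
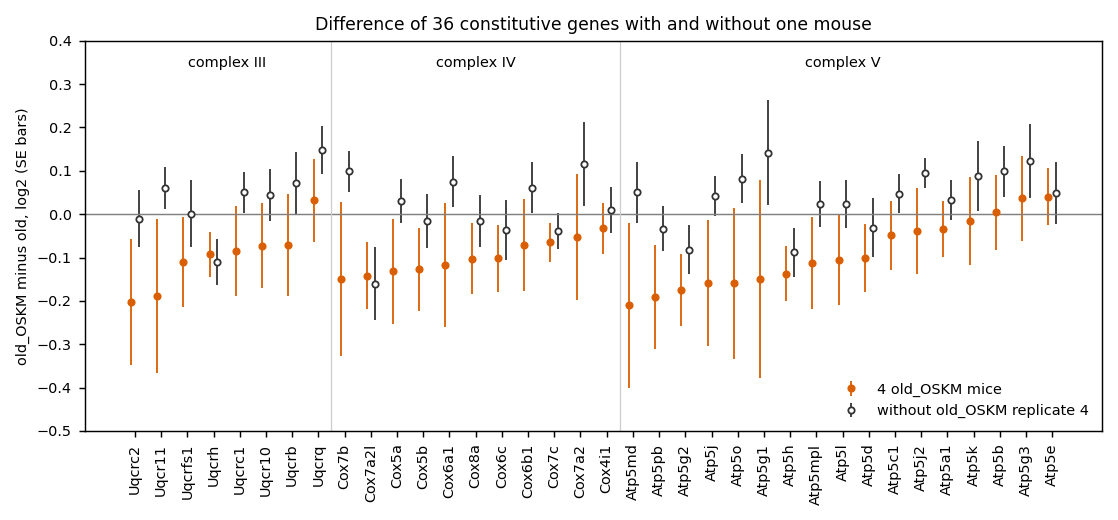
Difference of old-OSKM minus old for each of the 36 constitutive genes, in log2, with the standard error of limma, using all 4 old-OSKM mice (filled) or leaving out replicate 4 (open). Most filled points lie below 0, and 25 of the open points lie above it.

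No member passed the threshold in this comparison (0.753% of all rows did), and 1, Cox8b, had a raw p under 0.05, against 8.07% of all rows. No member separated the groups without overlap, against 1.73% of rows. The peripheral stalk gene Atp5h had the smallest raw p among the constitutive genes. It was at 3.60, 3.79, 3.79 and 3.70 in the young mice, 3.91, 3.78, 3.86, 3.74 and 3.87 in the old mice and 3.71, 3.72, 3.81 and 3.55 in the old-OSKM mice. The old-OSKM values are within or just under the range of the old mice apart from replicate 4, and the difference was -0.14 (SE 0.063). For Atp5g2 it was -0.18 (SE 0.084) and for Atp5pb, the b subunit of the same stalk, -0.19 (SE 0.12). In complex III the smallest raw p were those of Uqcrh, the hinge protein, at -0.093 (SE 0.051), Uqcrc2, at -0.20 (SE 0.15), and Uqcrfs1, at -0.11 (SE 0.10). In complex IV Cox7a2l followed Cox8b, at -0.14 (SE 0.077), and then Cox8c, at -0.14 (SE 0.092). Without replicate 4, the members with raw p under 0.05 were Cox8b, Uqcrq, at 0.15 (SE 0.055), and the f subunit Atp5j2, at 0.094 (SE 0.035), the last 2 higher in old-OSKM mice, where 6.23% of all rows had such a p.

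Against young mice, none of the 43 passed the threshold (0.625% of all rows) and 2 had a raw p under 0.05, against 5.07% of rows. These were Cox8b and Cox5b, a peripheral subunit that binds zinc. No member separated the groups without overlap, against 1.9% of rows. Cox5b lay at 3.34, 3.25, 3.27 and 3.06 in the young mice, 3.16, 3.15, 3.06, 3.08 and 3.11 in the old mice and 3.04, 3.18, 3.07 and 2.65 in the old-OSKM mice. Of the young mice only replicate 4 lay within the range of the old-OSKM mice, and old-OSKM minus young was -0.25 (SE 0.10, limma adjusted p = 0.706). Without old-OSKM replicate 4 it was -0.13 (SE 0.064, limma adjusted p = 0.876), and over all alternatives the adjusted p ranged from 0.380 to 1.00. In complex III the smallest raw p were at -0.090 (SE 0.054) for Uqcrh, -0.17 (SE 0.11) for Uqcrfs1 and -0.11 (SE 0.10) for Uqcrq, in complex IV Cox8c came after Cox8b and Cox5b, at -0.13 (SE 0.097), and in complex V the differences were -0.18 (SE 0.088) for Atp5g2, -0.14 (SE 0.11) for Atp5mpl and -0.16 (SE 0.13) for Atp5pb. The median difference was -0.11, -0.061 and -0.061 for complexes III, IV and V, and 0.042, 0.021 and 0.050 without replicate 4, beside -0.038 and -0.018 over all rows. All 3 comparisons share mice, so they do not stand as separate evidence.

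Cox8b, the heart, muscle and brown fat form of subunit 8 (chr7:140898942-140900446 in GRCm38.p6), had the largest point difference of any member in both comparisons with old-OSKM mice. It lay at -1.98, -1.92, -2.06 and -2.15 in the young mice, -1.95, -2.14, -1.95, -1.23 and -2.00 in the old mice and -1.38, 0.34, -0.38 and -1.93 in the old-OSKM mice. Old-OSKM replicates 2 and 3 were above every other mouse, replicate 1 was within the range of the old mice, whose highest value was that of replicate 4, and old-OSKM replicate 4 was at the level of the young mice, so the groups overlap. The difference was 1.02 (SE 0.38, limma adjusted p = 0.547) against old and 1.19 (SE 0.40, limma adjusted p = 0.706) against young mice. Without old-OSKM replicate 4 it passed the threshold, at 1.38 (SE 0.33, limma adjusted p = 0.601) against old and 1.55 (SE 0.34, limma adjusted p = 0.364) against young mice. Without replicate 2, the highest, it was 0.63 (SE 0.30, limma adjusted p = 0.422) against old mice. Over all alternatives the adjusted p of limma for Cox8b ranged from 0.300 to 0.769 against old and from 0.145 to 0.850 against young mice. Its constitutive partner Cox8a was at 3.55, 3.50, 3.50 and 3.17 in the same 4 mice.

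Even the highest value of Cox8b, in old-OSKM replicate 2, was under that of every constitutive member, and in 8 of 13 mice its value coincided with that of another low isoform within 0.03, among them all 4 young mice and old-OSKM replicate 4. Of the defining markers of brown fat, Ucp1, the uncoupling protein, was at -3.57 and -3.55 in old-OSKM replicates 2 and 3, Cidea at -3.24 and -3.20 and Elovl3 at -4.41 and -4.39. In all 3 genes young replicate 2 was above both values. The 5 listed brown fat markers also hold Ppara and Dio2, whose values are not given here. Summed, the 5 were at 1.88 and 1.82 RPKM in old-OSKM replicates 2 and 3. Their sum was 1.52 to 1.89 in young, 1.63 to 2.01 in old and 1.25 to 1.88 in all old-OSKM mice. The 7 skeletal muscle markers summed to 1.42 and 1.37 RPKM in replicates 2 and 3, against 0.980 to 1.26 in young, 1.07 to 1.44 in old and 1.03 to 1.42 in all old-OSKM mice. Of the white fat markers, Adipoq, the adipocyte hormone adiponectin, was at 1.12, -3.29, -2.50 and -0.49 in the 4 old-OSKM mice. The part of fat or muscle cells in the Cox8b values was not tested.

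Cox7a1, the muscle form of subunit 7a, is another isoform shared with brown fat. It was at -1.99, -1.93, -2.07 and -2.15 in the young mice, -1.96, -1.45, -1.96, -1.96 and -1.32 in the old mice and -2.37, -1.35, -1.25 and -1.93 in the old-OSKM mice. Old-OSKM replicates 2 and 3 were the highest of their group here too, near old replicates 2 and 5, and old-OSKM minus old was 0.0038 (SE 0.22). The remaining low isoforms, Cox4i2 (known from lung), Cox6b2 (known from testis), Cox7b2 and Cox8c (known from testis), had ranges that overlapped among the 3 groups, and none had a raw p under 0.05 in any comparison.

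**Figure D3:**
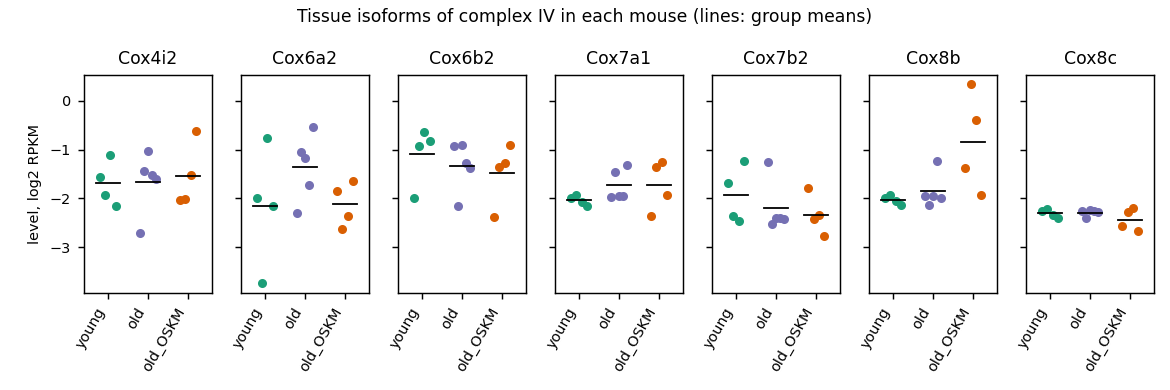
Level of the 7 low isoforms of complex IV in each mouse, in log2 RPKM, with lines at the group means. Cox8b is at 0.34 and -0.38 in old-OSKM replicates 2 and 3, and at or below -1.23 in the other 11 mice.

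Old-OSKM replicate 4 stood apart from the other 12 mice in the constitutive members of each complex. The median of the 8 complex III genes was 3.02, 3.04, 2.98 and 2.92 in the young mice, 3.01, 3.01, 2.99, 2.98 and 2.89 in the old mice and 2.98, 3.03, 3.06 and 2.26 in the old-OSKM mice. The median of the 11 constitutive complex IV genes was 3.48, 3.46, 3.40 and 3.26 in the young mice, 3.61, 3.57, 3.53, 3.53 and 3.44 in the old mice and 3.55, 3.48, 3.50 and 3.02 in the old-OSKM mice. The median of the 17 complex V genes was 3.32, 3.43, 3.37 and 3.37 in the young mice, 3.43, 3.35, 3.48, 3.36 and 3.34 in the old mice and 3.41, 3.41, 3.34 and 2.90 in the old-OSKM mice. In each complex the fourth old-OSKM mouse was the lowest of the 13, and without it the other old-OSKM mice averaged 3.02 ± 0.040, 3.51 ± 0.034 and 3.39 ± 0.038 (SD, n = 3), against 2.98 ± 0.050, 3.53 ± 0.061 and 3.39 ± 0.062 in old mice.

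**Figure D4:**
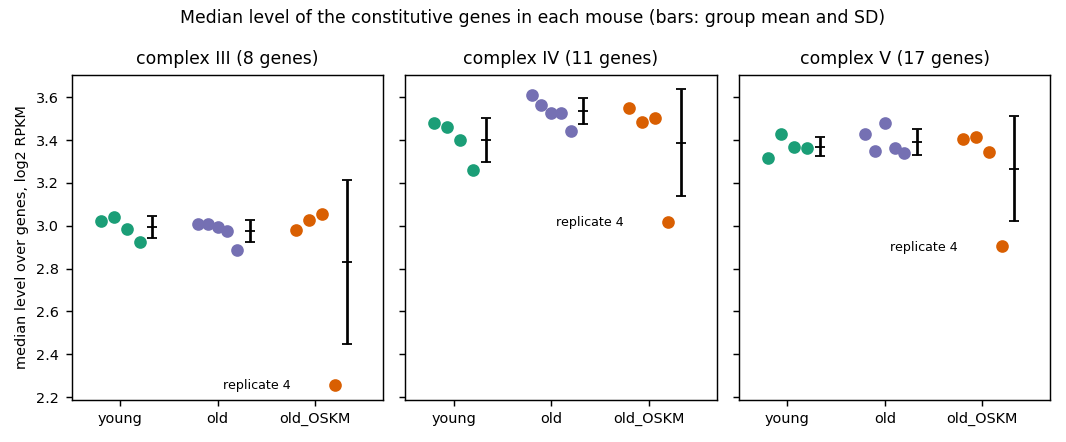
Median level over the constitutive genes of each complex in each mouse, in log2 RPKM, with the group mean and SD as bars. Old-OSKM replicate 4 lies below the other 12 mice in all 3 panels, at 2.26, 3.02 and 2.90.

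Replicate 4 was the lowest of the 13 mice in 32 of the 36 constitutive genes, where it was the lowest in 36.2% of the 8410 rows with a mean log2 RPKM above 0. Set against the mean of old-OSKM replicates 1 to 3, the median of the 36 was -0.47, and 30 of the 36 were more than 0.25 lower. Over the 8410 rows the median was -0.078, and 33.3% were more than 0.25 lower. Summed on the RPKM scale, replicate 4 held 73.4% of the mean of the other 3 for complex III, 77.3% for complex IV and 71.4% for complex V. The rest of this account of replicate 4 is a description of a mouse and of genes chosen after the values were seen, with no test.

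The subunits were not lowered evenly. The most affected were Atp5g1, of the c ring, at 2.52 against 3.69 ± 0.052 (SD) in replicates 1 to 3, Atp5md at 1.98 against 3.02 ± 0.089, Cox7b at 2.03 against 3.03 ± 0.053, Uqcr11 at 2.24 against 3.24 ± 0.055 and Atp5o, the OSCP subunit that ties the stalk to the head, at 2.90 against 3.87 ± 0.018. These 5 were at 44.5% to 51.2% of the level in the other 3 mice. At the other end, Uqcrh was at 3.89 against 3.82 ± 0.058, Cox7a2l at 3.64 against 3.57 ± 0.074 and Atp5e, the epsilon subunit of the central stalk, at 3.35 against 3.38 ± 0.11. Values differed among subunits of 1 structural part. Within the peripheral stalk of complex V, replicate 4 minus the others was -0.97 for Atp5o, -0.80 for Atp5j, -0.63 for Atp5pb and -0.20 for Atp5h. In the c ring it was -1.17 for Atp5g1 beside -0.37 for Atp5g2 and -0.35 for Atp5g3. The head subunits Atp5a1 and Atp5b were at -0.27 and -0.38.

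**Figure D5:**
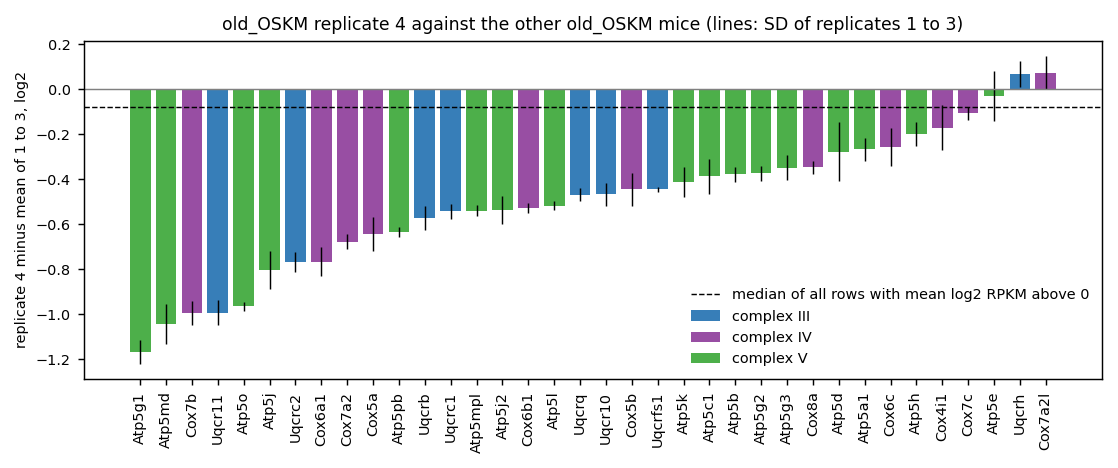
Old-OSKM replicate 4 minus the mean of old-OSKM replicates 1 to 3 for the 36 constitutive genes, in log2, coloured by complex, with the SD of replicates 1 to 3 as lines and the median of the 8410 rows with a mean above 0 as a dashed line. The differences run from -1.17 (Atp5g1) to 0.074 (Cox7a2l), and the 3 complexes are mixed along the order.

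The length used here is that of the longest annotated transcript of a gene, which need not be the one expressed. Genes that are short by this measure were lower in this mouse in general. The subunit genes are short by it (median 966.5 nt over the 36, against 3466 nt over the rows with a mean above 0). Among other rows with a transcript of at most 1000 nt, the median of replicate 4 minus the others was -0.34 (n = 407), against -0.46 for the 18 members of that length. From 1000 to 2000 nt it was -0.24 (n = 1298), against -0.42 for 10 members. From 2000 to 4000 nt it was -0.11 (n = 3213), against -0.54 for 6 members. From 4000 to 8000 nt it was 0.022 (n = 2784), against -0.84 for 2 members. In the 4 classes in this order, 14 of 18, 8 of 10, 6 of 6 and 2 of 2 members were below the median of the other rows, and 5, 3, 4 and 2 were below their lower quartile. The Spearman rho of this deviation with length was 0.30 over the rows with a mean above 0, and -0.10 among the 36 members. The part of transcript length in the result was not tested.

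Markers of several other cell types were high in this mouse, and those of others were not. The 7 fibroblast and stellate cell markers were all above the mean of the other 3 old-OSKM mice and summed to 72.8 RPKM, against 26.9 to 53.8 RPKM in young, 20.1 to 26.0 in old and 26.2 to 40.9 in the other 3 old-OSKM mice. The 4 endothelial markers were all above it and summed to 16.9, against 8.74 to 13.8 RPKM in young, 7.62 to 8.87 in old and 8.64 to 9.45 in the other 3 old-OSKM mice. The 6 beta cell markers summed to 426, against 129 to 267 RPKM in young, 147 to 344 in old and 67.0 to 140 in the other 3 old-OSKM mice, and the 6 duct markers to 39.8, against 20.2 to 31.5 RPKM in young, 19.4 to 22.6 in old and 20.4 to 26.0 in the other 3 old-OSKM mice. All 5 alpha and delta cell markers and all 7 white fat markers were also above the mean of the other 3 mice, with median differences of 1.06 and 0.69. So were 4 of 5 macrophage and 3 of 4 erythroid markers. High white fat and macrophage levels were shared with old-OSKM replicate 1. The white fat markers summed to 14.2 RPKM in replicate 4 and 13.7 in replicate 1. The macrophage sum was highest of the 13 mice in replicate 1, at 26.1 RPKM, and not in replicate 4. Lower than the mean of the other 3 old-OSKM mice were 4 of 4 T cell markers (median -0.35), 3 of 5 B and plasma cell markers (-0.37), 5 of 5 brown fat markers (-0.17), 5 of 7 skeletal muscle markers (-0.23) and 7 of 10 acinar markers (-0.0071). For the first 2 lists replicate 1 raised that mean. T cell markers summed to 1.02 RPKM in replicate 4 and 3.81, 0.553 and 1.01 in replicates 1 to 3. Young mice ranged from 0.474 to 0.638 and old mice from 0.489 to 1.14. B and plasma cell markers summed to 5.97 in replicate 4 and 11.8, 3.92 and 3.24 in replicates 1 to 3. Young mice ranged from 0.749 to 2.44 and old mice from 2.19 to 7.65. The acinar markers ran from -1.02 to 0.23, with 1 more than 0.25 lower and 2 at the lowest level of the 13 mice. The limit of the normalization given above was stated for enzyme genes, and this list also holds the transcription factors Ptf1a and Bhlha15. Whether a low marker value rests on reads cannot be told from these values. The mean gene z-score over all rows was -0.568 in replicate 4, the lowest of the 13 mice. Old-OSKM replicate 1 had the next lowest, -0.352, with its constitutive members at a median of 0.0045 from the other mice. The part of these values in the low subunit levels was not tested.

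Other genes of oxidative phosphorylation were also low in old-OSKM replicate 4. The 37 listed genes with an Nduf symbol, Ndufa4 among them, were counted by symbol as complex I, the entry point of electrons from NADH. They included none past the threshold in any comparison. For them the median of old minus young was -0.0066, that of old-OSKM minus old -0.093 with 32 of 37 lower, and replicate 4 minus the other old-OSKM mice had a median of -0.46, with 36 of 37 lower. In old minus young no complex I gene had a raw p under 0.05. In old-OSKM minus old 2 of the 37 did, Ndufa6 at -0.16 (SE 0.058) and Ndufs7 at -0.20 (SE 0.087), where 8.07% of all rows did. In old-OSKM minus young 2 did, Ndufa6 at -0.17 (SE 0.062) and Ndufb7 at -0.15 (SE 0.063), where 5.07% of all rows did. Of the 37, 1 separated old-OSKM from old mice without overlap (Ndufa6), against 1.73% of all rows, and 1 separated old-OSKM from young mice, against 1.9%. The 4 genes of complex II, which feeds electrons from succinate, were all lower in replicate 4, with a median of -0.24. The heme-bearing cytochromes outside the rule, Cyc1 and Cycs, stood at a median of -0.63 there. Subunits encoded in mitochondrial DNA (mt-Cytb, mt-Co1, mt-Co2, mt-Co3, mt-Atp6 and mt-Atp8) were looked for by symbol. No row was matched to them, so they were not analysed.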

How the data were processed

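RNA was sequenced from whole pancreas of 13 mice. Reads were aligned by the authors with STAR 2.3.0e to mm10, and Casper gave expression estimates that were quantile normalized and deposited as log2 RPKM, 1 row for each Entrez identifier. Reads with 5 or more mapping locations were left out by the authors; how reads shared with fewer copies, such as processed pseudogenes of the subunits, were divided is not given in the sources used here. The methods also name a correction for total reads, and whether the deposited values include it is not stated. The table holds no counts. The columns were used as deposited, with no filter and no pseudocount. Symbols came from RefSeq GRCm38.p6 (23273 of 23366 rows matched), the assembly of mm10. Transcript lengths came from GENCODE on the same assembly, as the longest transcript of each gene. Groups were taken from the sample labels. One limma 3.58.1 fit in R 4.3.3 (lmFit, eBayes, 3 groups, no covariate) over all rows gave the contrasts, with Benjamini-Hochberg adjustment over all rows, and was tested on simulated data. A call is a fold change over 1.5 with raw p under 0.01. Members named with values are those called, the 3 of each complex with the smallest raw p per comparison, isoform pairs, and the highest and lowest of each complex. Others, such as Atp5j2 or the genes of replicate 4, were chosen after their values were seen. Members and lists were chosen with earlier results of these data known. Replicate numbers follow accession order and pair no mice. Identifiers ran from 609 to 621, and from 641 to 643 for young replicates 3 and 4 and old replicate 5; whether this marks a batch is not given in the sources used here. Alternatives were repeated quantile normalization, median centring, a filter, pseudocounts, fits of 2 groups, a trended robust fit, the identifier run or the mean gene z-score as covariate, and leaving out each mouse.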

Additional observations from a re-analysis of the deposited data

Results flagged for a closer look

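For each member and group, the gap between the most extreme mouse and its neighbour was divided by the range of the group. Of 129 groups, 27 exceeded the 95% limit for their size. Independent groups would do so in about 1 of 20 cases. The members were measured in the same mice and are not independent, so the count is a description and no test. Of these, 19 were constitutive members in which old-OSKM replicate 4 lay far below the other 3 mice. The share of the range was 0.898 for Uqcr11, 0.830 for Uqcrb, 0.885 for Uqcrc1, 0.896 for Uqcrc2, 0.956 for Uqcrfs1, 0.895 for Uqcrq, 0.849 for Cox6a1, 0.919 for Cox6b1, 0.916 for Cox7a2, 0.900 for Cox7b, 0.872 for Cox8a, 0.849 for Atp5b, 0.918 for Atp5g1, 0.838 for Atp5g2, 0.930 for Atp5l, 0.845 for Atp5md, 0.912 for Atp5mpl, 0.965 for Atp5o and 0.940 for Atp5pb. The values beside this pattern (transcript length, markers of other cell types, the mean z-score) stand in the report, and their part in it was not tested.

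The other 8 groups were spread over several mice. In constitutive members young replicate 1 was far below the other young mice for Cox7c (0.862) and Atp5l (0.879), young replicate 4 for Cox6a1 (0.858), old replicate 5 for Cox6b1 (0.742) and old replicate 2 for Atp5md (0.779). In the low isoforms old replicate 1 was far above the other old mice for Cox7b2 (0.901), old replicate 4 for Cox8b (0.795), and old replicate 2 far below for Cox8c (0.740).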

How the results depend on the processing

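No member was called in old minus young under any alternative. With 1 mouse left out, calls ranged from 0 to 1 in old-OSKM minus old and from 0 to 1 in old-OSKM minus young, the 1 being Cox8b in each case (without old-OSKM replicate 4 in both, and without old-OSKM replicate 1 in the latter), and with the mean gene z-score as covariate 1 member, again Cox8b, was called in both. Members with raw p under 0.05 ranged from 0 to 1, 0 to 4 and 1 to 4 over the mice left out, for old against young, old-OSKM against old and old-OSKM against young mice respectively. The highest of these, 4, was reached in old-OSKM minus old without old replicate 4, and in old-OSKM minus young without old-OSKM replicate 1, 3 or 4. In old minus young the number was 1 with 2 groups in the fit, with the identifier run as covariate or within the lower run alone. In old-OSKM minus old it was 0 with the filter on low values, which removes Cox8b, and within the lower run, and 2 with a pseudocount of 1 or 0.1 and in the trended robust fit. In old-OSKM minus young it was 1 with the filter, with 2 groups and within the lower run, an alternative added after seeing the data. Without old-OSKM replicate 4, 1456 of all 23366 rows had a raw p under 0.05 in old-OSKM minus old, and 181 were called. In old-OSKM minus young these numbers were 1358 and 179. The shares of all rows under the other alternatives are not given here, so the member counts there have no background beside them.

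Over the mice left out, the medians of complexes III, IV and V ranged from -0.13 to 0.047, -0.14 to -0.0030 and -0.15 to 0.048 in old-OSKM minus old, and from -0.16 to 0.042, -0.095 to 0.021 and -0.11 to 0.050 in old-OSKM minus young, the upper ends being those without old-OSKM replicate 4. In old minus young they ranged from -0.022 to 0.012, 0.016 to 0.055 and -0.0093 to 0.019. With the mean gene z-score as covariate they were 0.024, -0.013 and 0.031 against old mice, and 0.010 and 0.039 for complexes III and V against young mice; the covariate is lowest in replicate 4, and the cause was not tested. Of the differences of named members, 7 changed sign under 1 alternative each. With 1 mouse left out, Uqcrfs1 ranged from -0.12 to 0.0032 and Atp5k from -0.027 to 0.10 in old minus young (sign changed without young replicates 2 and 4, respectively), Uqcrfs1 from -0.15 to 0.00097 against old mice, and Uqcrq from -0.16 to 0.0028 and Atp5pb from -0.22 to 0.00011 against young mice (all 3 without old-OSKM replicate 4). Cox8c was 0.0071 and 0.0042 with the covariate, against old and young mice. No paired analysis was possible because the labels give no replicate numbers that link mice across groups.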

Other observations

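Factors that build the 3 complexes held no call. Of 6 assembly factors of complex III, 20 of complex IV and 3 of complex V, none was called in any comparison, and the medians of old minus young were -0.024, 0.00032 and -0.092. In old-OSKM minus old they were -0.13, -0.10 and -0.070, and old-OSKM replicate 4 minus the other old-OSKM mice had medians of -0.12, -0.38 and -0.45. Of 12 regulators of mitochondrial gene expression, none was called, and 2 had a raw p under 0.05 in old-OSKM minus old in limma, where 8.07% of all rows did: Tfb2m, a factor of mitochondrial transcription, at -0.24 (SE 0.096, adjusted p = 0.547), and Ppargc1a, the coactivator PGC-1alpha, at -0.34 (SE 0.15, adjusted p = 0.547). Ppargc1a was at 0.14, 0.36, 0.18, 0.39 and -0.25 in old and -0.45, -0.016, -0.29 and 0.041 in old-OSKM mice, with overlapping ranges, and old-OSKM replicate 4 was not the lowest of its group.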
